A study of Mus musculus with 11 samples.

Results

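Srcap, Chd4, Trrap, Btaf1 and Brd9 encode subunits of nuclear complexes that move nucleosomes or bring coactivators to promoters, and their RNA was followed in mouse cardiac fibroblasts with and without Pw1. The 5 genes were taken by symbol from a table of 1293 genes. All 5 had a value in every library and passed the filter on low counts, which left 814 genes tested. Fibroblasts came from the injured left ventricle on day 3 after myocardial infarction in every library, and no uninjured heart was part of the comparison. The 6 control libraries carry 2 genotype labels: controls 1 to 3 are listed as "wild type, Pw1fl/+ or Pw1fl/fl" and controls 4 to 6 as "Pw1 fl/fl". The 5 CKO libraries are homozygous for the floxed Pw1 allele and carry Cre under Pdgfra, a promoter active in fibroblasts and other mesenchymal cells (CKO 1 to 3 labelled "Pdgfra-Cre;Pw1fl/fl", the other 2 "PDGFRa Cre+;Pw1 fl/fl"). Replicates 1 to 3 of both groups are called set 1 here and the rest set 2. The columns of the 2 CKO libraries of set 2 bear numbers of no sample title, so these are called CKO a and CKO b and were placed in set 2 by elimination. The labels used here give no age, sex or strain, and do not say whether a library came from 1 animal or from several.

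Pw1, also named Peg3, is a paternally expressed, imprinted zinc-finger protein. SRCAP is the ATPase that swaps histone H2A for the variant H2A.Z in nucleosomes next to promoters. CHD4 is the ATPase of NuRD, a complex that joins nucleosome sliding to histone deacetylation. BTAF1, the counterpart of yeast Mot1, uses ATP to strip the TATA-binding protein from DNA and so returns it to the pool that can load elsewhere. TRRAP has the fold of a phosphatidylinositol kinase-like protein without kinase activity, and is the scaffold through which activators such as MYC reach the histone acetyltransferase complexes SAGA and NuA4/TIP60. BRD9 is an acetyl-lysine reader with a bromodomain, found in the non-canonical form of the BAF (SWI/SNF) remodeller.

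Library totals, recovered from counts and FPKM, were 20137446 to 20424862 reads in the controls and 20130981 to 20373585 in CKO 1 to 3. On the genes held here, reads numbered 535048 in CKO a, 542843 in CKO b and 592881 to 637764 in each other library. These were 3.03 to 3.12% of the recovered total in the controls and 2.92 to 2.95% in CKO 1 to 3. The table is thus a small part of what was sequenced, and shares of genes given here are shares of this table only. The 10 genes with most reads in a library took 15.1 to 16.1% of its reads held here in the controls. They took 21.8 to 25.4% in CKO 1 to 3 and 30.6 to 31.6% in CKO a and CKO b. The mean transcript length of a library was 2166 to 2294 nt in the controls and 1540 to 1675 nt in CKO 1 to 3. The table used here holds 0 of the 14 listed fibroblast markers, so the labelled cell type could not be checked, and the level of Peg3 itself was not analysed here. Of 12 macrophage and monocyte markers 1 was measured, Ly6c2, at 58.5 to 77.3 CPM (TMM-scaled counts, relative to library size) in the controls and 79.3 to 224 CPM in CKO libraries. Its rise with TMM (1.02; edgeR adjusted p = 0.00116) was not called with recovered totals (0.17; edgeR adjusted p = 0.241) or after a length correction (-0.25; edgeR adjusted p = 0.0734), and with TPM it was called lower (-0.29; limma adjusted p = 0.0307). Of 7 red cell markers 2 were measured, Hbb-bs and Hbb-bt, whose summed level was 1.84 to 3.49 CPM in the controls and 10.2 to 31.9 CPM in CKO libraries, with Hbb-bt at 0 in 1 control library. The red cell genes and the transcript length moved with the groups, as did Ly6c2 with TMM, and the part of the marker genes in the results that follow was not tested. In RNA from a cell population, fewer cells of a type and less RNA per cell cannot be told apart.

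The 5 genes lie on 5 chromosomes of GRCm38, all on the plus strand. Srcap (gene ID 100043597) spans chromosome 7, 127511983 to 127561219, and its longest coding transcript in GENCODE M21 has 34 exons. Chd4 (107932) spans chromosome 6, 125095981 to 125130591, with 39 exons. Trrap (100683) spans chromosome 5, 144767732 to 144859778, with 71 exons. Btaf1 (107182) spans chromosome 19, 36926079 to 37012752, with 38 exons. Brd9 (105246) spans chromosome 13, 73937811 to 73960895, with 16 exons. The longest open reading frames hold 3859 codons, stop codon aside, in Trrap, 3271 in Srcap, 1922 in Chd4, 1848 in Btaf1 and 597 in Brd9. Reads imply effective transcript lengths in control libraries of 13158 nt for Trrap, 11125 nt for Srcap, 7917 nt for Btaf1, 6604 nt for Chd4 and 2549 nt for Brd9. Trrap was the 6th longest of the 759 tested genes with a length and Srcap the 11th, so 4 of the 5 genes are among the long transcripts of the table and Brd9 is of middle length.

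Promoter windows of 300 bases around an annotated start, from RefSeq (GRCm38.p6), were at hand for all 5 genes. Those of Trrap, the gene with the largest change, and of Btaf1 and Brd9, the genes with the smallest changes, are shown 5′ to 3′ with matches to the searched letters in capitals. The windows lie at chr5:144768544-144768843, chr19:36925829-36926128 and chr13:73937561-73937860, all on the plus strand, and that of Trrap lies inside the gene as GENCODE draws it.
Trrap: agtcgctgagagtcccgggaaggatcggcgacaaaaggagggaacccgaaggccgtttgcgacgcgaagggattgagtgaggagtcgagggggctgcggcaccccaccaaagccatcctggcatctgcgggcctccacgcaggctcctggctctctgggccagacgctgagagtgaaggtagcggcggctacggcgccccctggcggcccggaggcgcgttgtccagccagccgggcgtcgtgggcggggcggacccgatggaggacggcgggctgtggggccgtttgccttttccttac
Btaf1: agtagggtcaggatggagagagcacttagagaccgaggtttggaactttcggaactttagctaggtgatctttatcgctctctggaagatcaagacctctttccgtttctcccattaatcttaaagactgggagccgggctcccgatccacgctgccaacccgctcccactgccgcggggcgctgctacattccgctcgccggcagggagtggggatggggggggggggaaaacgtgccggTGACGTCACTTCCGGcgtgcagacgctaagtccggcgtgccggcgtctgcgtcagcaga
Brd9: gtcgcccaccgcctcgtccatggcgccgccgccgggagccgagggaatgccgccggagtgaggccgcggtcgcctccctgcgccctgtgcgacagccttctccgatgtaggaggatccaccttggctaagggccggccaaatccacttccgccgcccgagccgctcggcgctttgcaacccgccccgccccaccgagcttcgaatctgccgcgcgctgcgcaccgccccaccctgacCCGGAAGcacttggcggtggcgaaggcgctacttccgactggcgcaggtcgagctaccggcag

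Both strands were searched for 7 strings of letters: CCGGAAG of the ETS family, GCGCATGC within the NRF1 site, AAGATGGC within the YY1 site, CCAAT of NF-Y, TATAAA of the TATA box, TGACGTCA of CREB/ATF and CACGTG of the E-box. CCGGAAG was found in 2 of the 5 windows, at position -13 of Brd9 and at -1 of Btaf1, and in 9.12% of 27025 promoters. TGACGTCA was found at -9 of Btaf1, directly followed by the reverse complement of the ETS string, and in 1.88% of promoters. CCAAT was found for Chd4 alone among the 5 genes, and in 37.9% of promoters. GCGCATGC (2.80% of promoters), AAGATGGC (2.88%), TATAAA (14.2%) and CACGTG (7.24%) were in none of the 5 windows, and the Trrap and Srcap windows held none of the 7. Chd4 and Brd9 have a second window, shifted by a nearby start, which holds the same match. The windows held more CpG than the median promoter, with 40 CpG in Brd9, 31 in Trrap, 25 in Btaf1, 17 in the first Chd4 window and 16 in Srcap, against a median of 7 over all promoters. The share of promoters with no more CpG was 96.7% for Brd9, 90.8% for Trrap and 83.2% for Btaf1. It was only 69.9% for the first Chd4 window and 68.1% for Srcap. These are matches of letters, and no binding was measured.

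Whether loss of Pw1 in fibroblasts changes the RNA of these regulators was asked with 1 edgeR fit over the whole table (TMM scaling, group and set in the model). Both the TMM scaling and the background shares rest on the genes of this table, which hold a small part of the reads, and not on all genes. Trrap, Chd4, Srcap and Btaf1 were lower in CKO fibroblasts and Brd9 was not called. Calls in either direction made up 70.4% of the 814 genes and lower calls 36.1%, so 4 of 5 has to be read beside that share, and beside the 72.9% of lower calls among the 207 genes over 4000 nt, where Trrap, Srcap, Btaf1 and Chd4 all lie and 6.76% were called higher. Of genes of 2000 to 4000 nt, the class of Brd9, 33.8% were called lower and 32.4% higher, and of shorter genes 13.9% and 57.1%. DESeq2 (37.3% of all genes lower), limma-voom (36.9%) and TMM in the 9 libraries matched to a sample (32.8%) called the same 4 of the 5 genes lower. For 3 of the 5 genes every CKO library lay below every control library, which held for 27.8% of tested genes.

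Trrap, the coactivator scaffold, had the largest change of the 5. The control libraries had 79.8 CPM at the lowest, 96.6 at the median and 117 at the highest. The CKO libraries had 26.1, 39.1 and 37.5 CPM in CKO 1 to 3 and 12.2 and 10.7 CPM in CKO a and CKO b. No CKO library reached the level of any control, and the 2 libraries of set 2 were the lowest. Trrap fell by 2.17 on the log2 scale (SE 0.22; edgeR quasi-likelihood test, adjusted p = 7.57e-06), or 4.51-fold, in the model with set. The plain group means, over both sets, were 96.9 ± 15.5 and 25.1 ± 13.4 CPM (SD, n = 6 and 5), and their ratio is not the modelled fold. Of the 207 genes over 4000 nt, 13 (6.28%) had a change as low as that of Trrap or lower.

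Chd4, the NuRD ATPase, had 211 CPM at the lowest, 241 at the median and 300.0 at the highest in the control libraries. CKO 1 to 3 had 143, 163 and 168 CPM, and CKO a and CKO b had 89.0 and 96.4 CPM. The groups did not overlap, and within both groups the libraries of set 2 were below those of set 1. Chd4 fell by 1.00 (SE 0.08; edgeR adjusted p = 2.14e-06) in the model with set. The plain group means were 248 ± 40.3 and 132 ± 37.1 CPM (SD, n = 6 and 5). Among the genes over 4000 nt, 37.7% had a change as low or lower.

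Srcap, the H2A.Z exchange ATPase, had 101 CPM at the lowest, 138 at the median and 179 at the highest in the controls. CKO 1 to 3 had 86.8, 93.1 and 91.5 CPM, and CKO a and CKO b had 54.0 and 65.4 CPM. The groups did not overlap, but controls 4 to 6, at 101 to 112 CPM, lay nearer to CKO 1 to 3 than to controls 1 to 3, at 163 to 179 CPM. Srcap fell by 0.88 (SE 0.07; edgeR adjusted p = 1.13e-06), or 1.84-fold, in the model with set. The plain group means were 139 ± 35.1 and 78.1 ± 17.5 CPM (SD, n = 6 and 5). Among the genes over 4000 nt, 44.9% had a change as low or lower.

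Btaf1, the TBP-displacing ATPase, had 76.7 CPM at the lowest, 82.1 at the median and 85.6 at the highest in the controls. CKO 1 to 3 had 64.8, 58.4 and 63.3 CPM, and CKO a and CKO b had 77.8 and 71.8 CPM. The groups overlapped, since CKO a lay above the lowest control, and here the set 2 libraries were the higher CKO libraries. Btaf1 fell by 0.27 (SE 0.06; edgeR adjusted p = 0.00239), or 1.21-fold, in the model with set. The plain group means were 81.9 ± 3.00 and 67.2 ± 7.64 CPM (SD, n = 6 and 5). Among the genes over 4000 nt, 73.9% had a change as low or lower, and the median change of these genes was -0.73.

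Brd9, the bromodomain subunit, had 27.7 CPM at the lowest, 28.6 at the median and 30.8 at the highest in the controls. CKO 1 to 3 had 29.7, 31.4 and 29.5 CPM, and CKO a and CKO b had 23.9 and 24.9 CPM. CKO 1 to 3 lay within or just above the range of the controls and CKO a and CKO b below it. Its change was -0.08 (SE 0.07; edgeR adjusted p = 0.303) in the model with set. The plain group means were 29.0 ± 1.16 and 27.9 ± 3.27 CPM (SD, n = 6 and 5). Among the 293 genes of 2000 to 4000 nt, whose median change was -0.07, 49.1% had a change as low or lower.

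**Figure D1:**
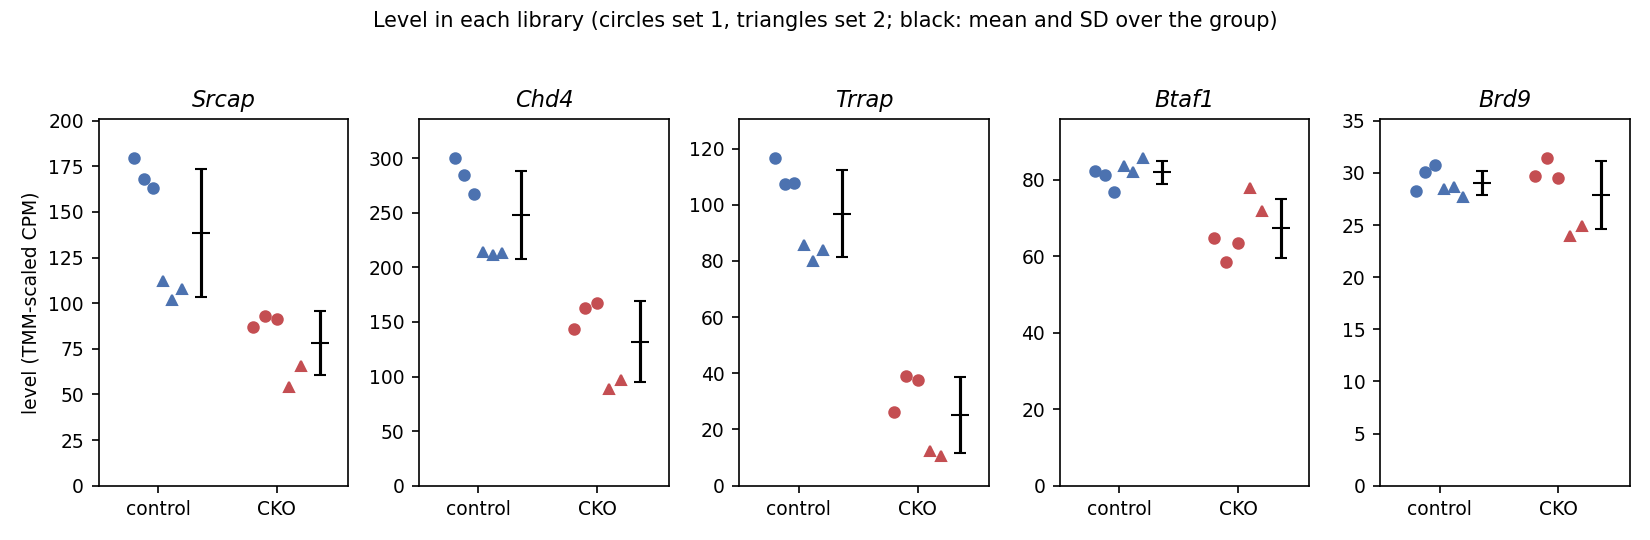
TMM-scaled CPM of each gene (vertical axes from 0) in the 6 control libraries (blue) and 5 CKO libraries (red), with circles for set 1, triangles for set 2, and the mean and SD of each group in black. Trrap, Chd4 and Srcap show no overlap between the groups, Btaf1 and Brd9 do overlap, and the set 2 CKO libraries are the lowest for 4 of the 5 genes but not for Btaf1.

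The sets gave separate measures of the CKO effect, each against its own controls. Trrap fell by 1.70 in set 1 (SE 0.13), or 3.26-fold, and by 2.87 in set 2 (SE 0.17), or 7.33-fold. The test of the difference gave -1.17 (SE 0.21; edgeR adjusted p = 0.00197), where 38.6% of 844 genes differed between the sets and 21.9% were more negative in set 2. Chd4 fell by 0.86 in set 1 (SE 0.07) and by 1.21 in set 2 (SE 0.09), a difference of -0.35 (SE 0.11; edgeR adjusted p = 0.0287). The difference for Chd4 was no longer called without control 3 (-0.30), CKO 2 (-0.32), CKO 3 (-0.31) or CKO a (-0.31).

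Srcap fell by 0.93 in set 1 (SE 0.08) and by 0.86 in set 2 (SE 0.09), and the difference of 0.07 (SE 0.12; edgeR adjusted p = 0.669) was not called. Btaf1 fell by 0.38 in set 1 (SE 0.06) and by 0.18 in set 2 (SE 0.07; edgeR adjusted p = 0.0419), a difference of 0.20 (SE 0.09) that was not called (edgeR adjusted p = 0.110). Its set 2 call was lost without any 1 of controls 1 to 6, CKO 2, CKO 3 or CKO b, with values from -0.18 to -0.13. Brd9 had a change of 0.01 in set 1 (SE 0.06; edgeR adjusted p = 0.900) and fell by 0.23 in set 2 (SE 0.07; edgeR adjusted p = 0.0163). The set 2 call of Brd9 was lost without control 5 (-0.20) or CKO a (-0.20). Its difference of -0.24 (SE 0.10; edgeR adjusted p = 0.0746) was called only without CKO 1, at -0.26. Lower calls made up 32.3% of 844 genes in set 1 and 37.1% in set 2. The way in which CKO a and CKO b were made and joined to the table cannot be told apart from the effect in set 2.

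The controls of the sets, which carry different labels, themselves differed for some of these genes. Srcap was lower in controls 4 to 6 than in controls 1 to 3 by 0.68 (SE 0.08; edgeR adjusted p = 0.000612), with 107 ± 5.36 against 170 ± 8.38 CPM (SD, n = 3 and 3). Chd4 was lower by 0.43 (SE 0.07; edgeR adjusted p = 0.00634), with 213 ± 1.46 against 284 ± 16.3 CPM. Of 844 genes, 7.94% were called between the control sets in either direction and 4.62% were lower in set 2. Trrap differed by -0.42 (SE 0.13; edgeR adjusted p = 0.0668), Btaf1 by 0.05 (SE 0.06; edgeR adjusted p = 0.694) and Brd9 by -0.08 (SE 0.06; edgeR adjusted p = 0.521), and none of these 3 was called. For Srcap the step between control sets was therefore 0.68, beside a CKO effect of 0.93 in set 1 and 0.86 in set 2. Controls 4 to 6 enter both the control contrast and the set 2 effect.

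The size of each change depended on the scaling. TMM set the median change of all tested genes at -0.06, with 294 genes lower and 279 higher. In the 9 libraries matched to a sample, recovered totals as the scaling set the median at -0.32 (44.9% of 801 genes lower and 22.1% higher), and limma on log2(TPM + 1) at -0.61 (66.3% of 662 genes lower and 13.1% higher). With recovered totals all 5 genes were called lower, at -1.98 for Trrap, -1.20 for Srcap, -1.13 for Chd4, -0.66 for Btaf1 and -0.27 for Brd9. With TPM all 5 were again called lower, at -2.19 for Trrap, -1.59 for Chd4 and Srcap, -0.82 for Btaf1 and -0.61 for Brd9, on the log2(TPM + 1) scale. Brd9 was thus close to the median of all genes under each of these scalings, and with TMM in the 9 libraries alone its change was 0.05 (edgeR adjusted p = 0.517).

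Change went with transcript length over the table, with Spearman's rho of -0.47 across 759 genes, which are not independent replicates. After the trend of each library with length was removed by robust loess offsets, chosen after the data were seen, Trrap was still lower by 0.90 (SE 0.16; edgeR adjusted p = 0.000603), where 34.7% of 759 genes were called lower. Chd4 was lower by 0.18 (SE 0.04; edgeR adjusted p = 0.00439) and Brd9 by 0.15 (SE 0.06; edgeR adjusted p = 0.0430). Srcap was instead called higher, at 0.30 (SE 0.07; edgeR adjusted p = 0.00298), as was Btaf1, at 0.68 (SE 0.09; edgeR adjusted p = 0.000117), where 34.3% of genes were called higher. Ordinary loess (27.0% of genes lower and 42.6% higher) gave the same directions and calls but for Brd9, at 0.07 (edgeR adjusted p = 0.391). With GC content corrected as well (35.1% lower and 33.9% higher, robust loess), Brd9 was at -0.07 and not called, and the other 4 genes kept their direction. Among the length-corrected changes, 20.0% of genes were as low as Trrap or lower, 44.4% as low as Chd4, 45.2% as low as Brd9, 65.3% as low as Srcap and 81.7% as low as Btaf1. Trrap and Chd4 were thus lower under all the scalings and corrections computed, while Srcap and Btaf1 were lower with each scaling and higher with each length correction.

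**Figure D2:**
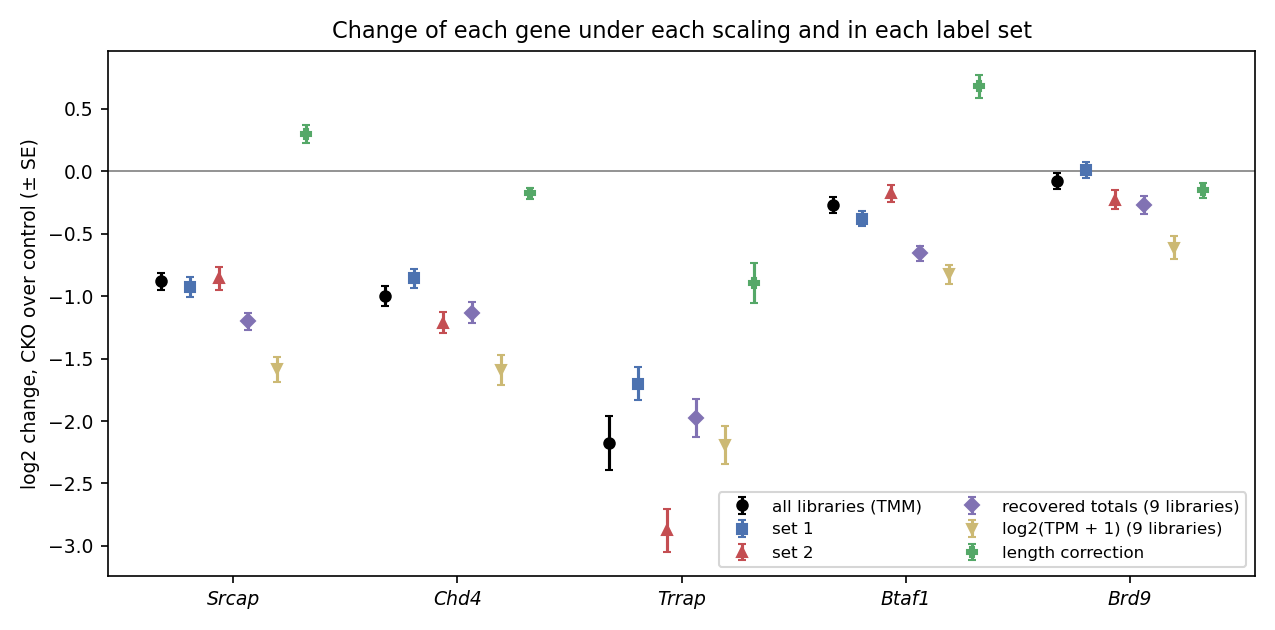
Log2 change of CKO over control with its SE (vertical axis) for each gene in all libraries with TMM, in each set, with recovered totals, with log2(TPM + 1) and after the length correction. Trrap lies below 0 throughout, from -2.87 in set 2 to -0.90 after the length correction, whereas Srcap and Btaf1 lie above 0 after that correction only.

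**Figure D3:**
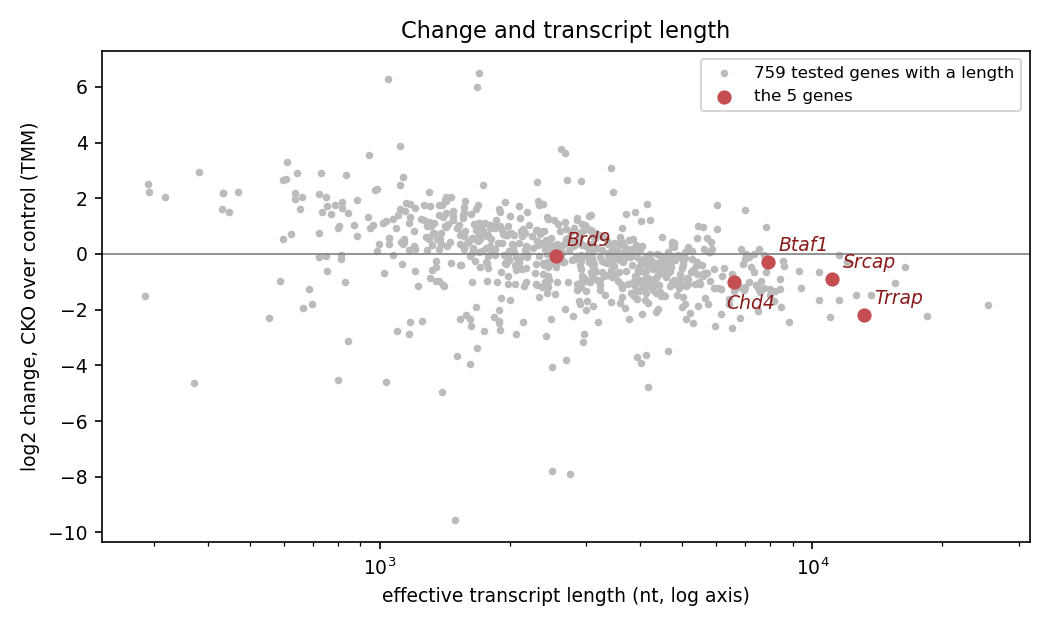
Log2 change with TMM (vertical axis) against effective transcript length (horizontal log axis) for 759 tested genes in grey and the 5 genes in red. Trrap, at 13158 nt and -2.17, lies below most genes of like length, and Brd9, at 2549 nt and -0.08, lies in the middle of the cloud.

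Levels of different genes were compared per length, as deposited TPM, in the 9 libraries matched to a sample. Chd4 was the most abundant of the 5 and Trrap the least in all 9. In the controls the mean TPM was 94.3 ± 16.3 for Chd4, 31.3 ± 8.17 for Srcap, 28.3 ± 1.54 for Brd9, 25.7 ± 1.21 for Btaf1 and 18.5 ± 3.09 for Trrap (SD, n = 6). Srcap, Brd9 and Btaf1 were neighbours whose ranges overlapped, and their order changed between the control sets. Srcap was second in controls 1 to 3, at 36.6 to 40.9 TPM, and next to last in controls 4 to 6, at 22.3 to 26.2 TPM. In CKO 1 to 3 the mean TPM was 35.6 ± 5.79 for Chd4, 18.8 ± 1.88 for Brd9, 13.7 ± 0.961 for Btaf1, 12.2 ± 1.43 for Srcap and 3.94 ± 1.08 for Trrap (SD, n = 3). The order was the same in all 3, although Btaf1 and Srcap were close, at 12.9 to 14.7 and 10.6 to 13.1 TPM. Against the controls of the same set, mean TPM was 5.37-fold lower for Trrap, 3.16-fold for Srcap, 3.05-fold for Chd4, 1.83-fold for Btaf1 and 1.55-fold for Brd9. These falls stand beside a table in which, with log2(TPM + 1), the median change was -0.61 and 66.3% of 662 genes were called lower.

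**Figure D4:**
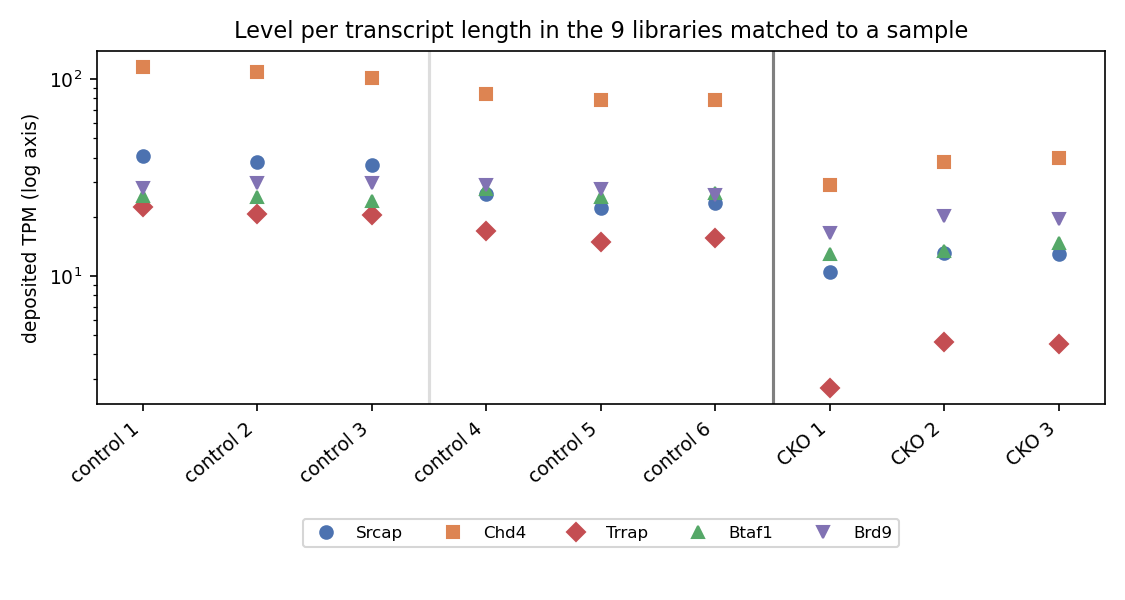
Deposited TPM of each gene (vertical log axis) in controls 1 to 6 and CKO 1 to 3, with a pale line between the control sets and a dark line between the groups. Trrap is the lowest gene in each library, at 14.8 to 22.4 TPM in the controls and 2.69 to 4.62 TPM in CKO 1 to 3, and Srcap falls from second place in controls 1 to 3 to next to last elsewhere.

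The ratio of 2 genes within a library needs no scaling factor, though it still carries their difference in length. Of the 10 pairs of these genes, 6 had log2 ratios of counts that did not overlap between the groups, against 50.3% of all pairs of tested genes, so the count itself is near the background. Chd4 and Trrap kept a narrow ratio in the controls, with a log2 of Chd4 over Trrap of 1.31 to 1.40 (mean 1.36 ± 0.04, SD, n = 6) although each differed in level between control libraries. In the CKO libraries this ratio was 2.06 to 3.17 (mean 2.54 ± 0.47, SD, n = 5). Srcap over Trrap went from 0.35 to 0.65 in the controls to 1.25 to 2.61 in the CKO libraries. Trrap over Btaf1 went from -0.04 to 0.50 in the controls to -2.74 to -0.58, and Trrap over Brd9 from 1.48 to 2.04 to -1.22 to 0.34. Srcap over Chd4 overlapped between the pooled groups, at -1.06 to -0.71 and -0.87 to -0.56, and in set 1. In set 2 it was -1.06 to -0.93 in the controls against -0.72 in CKO a and -0.56 in CKO b, without overlap. Relative to each of the other 4 genes Trrap was lower in the CKO libraries, with no overlap between the groups in any of these 4 pairs. The pairs of Btaf1 with Srcap, Chd4 and Brd9 overlapped when the sets were pooled. Within each set Srcap over Btaf1 did not overlap, with 1.05 or more in the controls and 0.42 to 0.67 in the CKO libraries of set 1, and 0.31 to 0.42 against -0.53 and -0.14 in set 2. Chd4 over Btaf1 did not overlap within sets either, with 1.80 to 1.87 against 1.48 or less in set 1 and 1.32 to 1.37 against 0.19 and 0.42 in set 2. Btaf1 over Brd9 separated in set 1, at 1.32 to 1.54 against 0.89 to 1.13, and overlapped in set 2. The share of 50.3% is for the pooled groups, and no share of all pairs was computed within a set. Groups of fewer libraries separate more easily, so the gaps within sets are given as description only.

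Counts and FPKM together give the effective length of the transcripts that the authors' quantification assigned to a gene in each library, a readout of its mix of isoforms. For Btaf1 this length was 7856 to 8160 nt in the 6 controls and 6796 to 6824 nt in CKO 1 to 3. The groups lay far apart, with a mean 14.7% shorter in the CKO libraries, while the control sets, at 8082 and 7877 nt, differed by much less. For Brd9 it was 2541 to 2632 nt in the controls and 2394 to 2433 nt in CKO 1 to 3, 6.04% shorter and also without overlap. For Chd4 it was 6577 to 6618 nt and 6680 to 6709 nt, 1.43% longer in the CKO libraries. Srcap (11115 to 11127 nt and 11125 to 11135 nt) and Trrap (13100 to 13173 nt and 13164 to 13185 nt) overlapped between the groups, so their lower counts came with no such change. Such separation was common: of 296 genes with FPKM of at least 5 in all 9 libraries, 34.8% were shorter and 37.2% longer in every CKO library than in every control library. The totals used had been set so that the median of these genes kept its length. Lengths are therefore relative to that median, and comparable shares of shorter and longer genes were built in. For CKO 3 the total first recovered was 19795846 reads and the total used 20248396, so a shift as small as that of Chd4 cannot be resolved. A shortening as large as that of Btaf1 was seen in 16 of them (5.41%). The RefSeq record of Btaf1 ends 1305 nt beyond the GENCODE record, so at least 2 ends of the gene are annotated. Because this measure was picked after its values were seen, no test is given. The FPKM of CKO a and CKO b were not used, so their lengths were not computed and the shifts were not looked at in the CKO libraries of set 2.

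**Figure D5:**
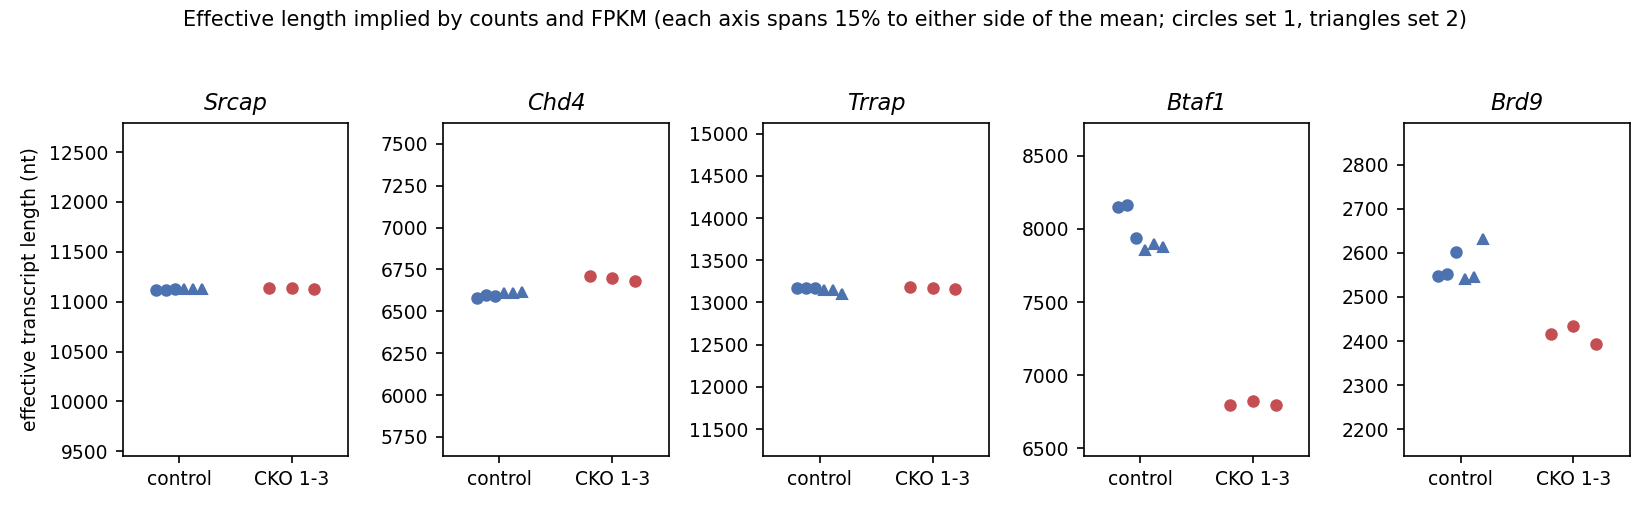
Effective transcript length in nt (vertical axes, each spanning 15% to either side of the mean and not starting at 0) of each gene in 6 control libraries (blue) and CKO 1 to 3 (red), with circles for set 1 and triangles for set 2. Btaf1 drops from 7856 to 8160 nt to 6796 to 6824 nt and Brd9 by less, while Srcap and Trrap stay level.

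Partner subunits of the same complexes were looked for in lists of the SRCAP/INO80, NuRD/CHD, TIP60/SAGA/ATAC, TBP/TFIID, BAF, ISWI/SNF2 and Mediator machinery. Of 207 listed symbols other than the 5 genes, 6 were tested, and 3 of these were lower and 1 higher, where 36.1% of all tested genes were lower and 34.3% higher. Their median change was -0.39, against -0.06 over all tested genes. No partner in the SRCAP, NuRD or BAF lists and no gene of the ISWI list was among the genes analysed here. The TIP60/SAGA/ATAC list, which holds Trrap, had 5 tested genes, Trrap among them, of which 4 were lower and 1 higher. Taf9, which SAGA shares with TFIID, was counted in the TFIID list.

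Mbtd1, a methyl-lysine reader of the TIP60 complex, had 33.0 to 45.2 CPM in the controls and 21.5 to 25.4 CPM in the CKO libraries, without overlap. It fell by 0.71 (SE 0.08; edgeR adjusted p = 1.56e-05). Taf5l, a WD-repeat subunit of SAGA, had 38.3 to 41.2 CPM in the controls and 7.11 to 32.2 CPM in the CKO libraries. It fell by 1.34 (SE 0.30; edgeR adjusted p = 0.00213), by 0.64 in set 1 and by 2.41 in set 2, a difference of -1.77 (edgeR adjusted p = 0.000817). Sf3b3, a subunit that SAGA shares with the splicing factor SF3B, had 197 to 210 CPM in the controls and 85.1 to 142 CPM in the CKO libraries, and fell by 0.86 (SE 0.10; edgeR adjusted p = 2.50e-05). Tada3, an adaptor of the acetyltransferase module, went the other way, from 18.5 to 21.6 CPM in the controls to 25.7 to 38.4 CPM, and rose by 0.69 (SE 0.11; edgeR adjusted p = 0.000202). With recovered totals the rise of Tada3 was not called (0.15; edgeR adjusted p = 0.147), and with TPM it was called lower, at -0.24.

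Taf9 had 44.1 to 64.2 CPM in the controls and 44.4 to 74.3 CPM in the CKO libraries, and its pooled change of 0.17 was not called (edgeR adjusted p = 0.359). It rose by 0.56 in set 1 and fell by 0.36 in set 2, and the test of that difference gave -0.92 (edgeR adjusted p = 0.00164). Med21 of Mediator had a pooled change of -0.07 (SE 0.26; edgeR adjusted p = 0.813). Its change was 0.38 in set 1 (edgeR adjusted p = 0.213) and -0.72 in set 2 (edgeR adjusted p = 0.0488), with a difference of -1.11 (edgeR adjusted p = 0.0453). After the length correction Mbtd1, whose transcripts are 5410 nt long, was no longer called (-0.02; edgeR adjusted p = 0.839). Taf5l, at 3001 nt, was still lower by 1.25, and Sf3b3, at 4355 nt, by 0.34, while Tada3 was higher by 0.34. Taf9, at -0.67, and Med21, at -1.34, both with short transcripts, were called lower after it.

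The genes whose levels followed each of the 5 most closely were ranked by Pearson's r of log2 CPM over the 11 libraries among 460 genes with a mean of at least 5 CPM (unnamed gene models left out), as a description, since all genes share the same libraries and the split between groups. Trrap was followed by Gpat4, a glycerol-phosphate acyltransferase (r = 0.99), Cabin1, a calcineurin-binding corepressor (0.99), and AU040320 (0.99). Chd4 was followed by Cabin1 (0.99), the integrin subunit gene Itga9 (0.99) and Phrf1, a PHD and RING finger gene (0.98). Srcap was followed by Numa1, a spindle-pole protein (0.97), Phldb1 (0.97) and Itga9 (0.95). All of these have transcripts of 4025 to 7388 nt. Btaf1 was followed less closely, by Cd276 (0.94), Mmrn2 (0.90) and the ubiquitin ligase gene Wwp1 (0.88), and Brd9 by Wdr91 (0.94), Wtip (0.93) and Nod1 (0.92). Among the 5 genes themselves, r was 0.98 for Chd4 with Trrap, 0.97 for Srcap with Chd4 and 0.92 for Srcap with Trrap. Btaf1 stood apart, with r of 0.37 to 0.48 with these 3 and of -0.32 with Brd9.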

How the data were processed

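Poly(A) RNA of 11 libraries was measured, per the labels' protocols. The deposited table gives TPM, FPKM and read counts in 33 columns. TPM and FPKM were scaled by the authors, per the file headers. Counts as the authors deposited them are RSEM-type expected counts, and were rounded to whole numbers before testing. The submitters' processing notes name Bowtie2, RSEM, DESeq2 and GRCm38, with no versions or settings. Of 1293 complete genes, 1141 had a value in every library. The 4 TPM and FPKM columns of CKO a and CKO b, tied to no single sample, were not used. p-values measure the spread between these libraries, whose origin in separate animals the labels do not state.

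Library totals came from counts over FPKM against GENCODE M21 lengths, and those of CKO a and CKO b from the share of reads held in CKO 1 to 3. Counts were fitted in edgeR 4.0.16 (R 4.3.3; TMM, filterByExpr, 2-sided quasi-likelihood F test, Benjamini-Hochberg over all tested genes, adjusted p under 0.05 called), with group and set as terms, or a mean per group and set. SE is the log2 change over the root of F. The fit was also run on counts simulated from its own model, with no length trend between the groups. That run cannot show how such a trend acts on the calls. Alternatives were DESeq2 1.42.0, limma 3.58.1 (voom and log2(TPM + 1), mean TPM of at least 1), other filters and scalings, length and GC offsets (loess, span 0.5), a replicate block, and each library left out. The genes and lists were chosen with earlier results of these data known. Named are the 5 genes, their tested partners and the 3 most correlated genes of each.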

Additional observations from a re-analysis of the deposited data

Results flagged for a closer look

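Trrap and Chd4 changed by different amounts in the 2 sets. Subtracting the set 1 change from that of set 2, in 1 edgeR fit, gave -1.17 for Trrap (SE 0.21; edgeR adjusted p = 0.00197) and -0.35 for Chd4 (SE 0.11; edgeR adjusted p = 0.0287). Trrap was lower in 5 of 5 CKO libraries than in every control, and its set difference stayed at -0.96 with the ordinary length correction (edgeR adjusted p = 0.000670), whereas that of Chd4 became -0.11 (edgeR adjusted p = 0.251). The Chd4 difference was also no longer called without control 3, CKO 2, CKO 3 or CKO a. Beside these values, set 2 differs in its control label and in the 2 CKO libraries placed there by elimination, and the part of either was not tested. A search for 1 outlying library in each of 10 groups of levels flagged none. Such a search does not bear on a split between the sets within a group, as seen for Trrap in the CKO libraries and Srcap in the controls.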

How the results depend on the processing

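The pooled direction and call of Trrap and Chd4 held under all 27 alternatives computed. The number of genes called lay between 442 of 641 tested (robust length and GC offsets) and 587 of 1141 (no low-count filter). Its split by direction moved, from 294 lower and 279 higher as reported to 360 and 177 with recovered totals. With log2(TPM + 1) it was 439 lower and 87 higher. With length offsets Srcap was called higher instead of lower, at 0.30 with robust loess (0.39 with GC content as well) and 0.24 with ordinary loess (0.29 with GC). Btaf1 reversed likewise, at 0.68 (0.77 with GC) and 0.66 (1.18 with GC). Within sets, the robust length correction put Srcap at 0.18 in set 1 and 0.45 in set 2 and Btaf1 at 0.49 and 0.91, and ordinary loess put them at 0.12 (not called; edgeR adjusted p = 0.141) and 0.39 and at 0.48 and 0.89. Ordinary loess also ended the calls of Chd4 in set 1 (-0.11; edgeR adjusted p = 0.0756) and of Brd9 in set 2 (-0.04; edgeR adjusted p = 0.638). With the robust length correction the difference between sets was called for Srcap (0.27; edgeR adjusted p = 0.0489) and Btaf1 (0.42; edgeR adjusted p = 0.0260) and not for Chd4 (-0.12; edgeR adjusted p = 0.172). The fall of Btaf1 was not called in set 2 alone (-0.16). Brd9 was called lower with recovered totals (-0.27), with log2(TPM + 1) (-0.61), with log2(TPM + 0.1) (-0.64), in set 2 alone (-0.21) and with the robust length correction (-0.15). Of the 5 genes, 4 were called lower as reported, beside 36.1% of all tested genes. All 5 were called lower with recovered totals (44.9% of all genes) and with TPM (66.3% with log2(TPM + 1)). The count was 3 with the robust length correction (34.7%) and 2 with ordinary length offsets (27.0%). It was 2 with robust length and GC offsets (35.1%) and 2 with ordinary ones (188 of 641 genes). In the 9 libraries without CKO a and CKO b it was 4 (32.8%). Robust loess was added after seeing the data, because ordinary loess left the median of all genes at 0.16, and gave 263 lower and 260 higher genes against 205 and 323. With GC as well, ordinary loess gave 188 lower genes, against 294 without a correction, in a smaller table of 641 genes. Leaving out 1 library at a time changed no call in the pooled comparison, with values from -0.94 to -0.85 for Srcap, -1.05 to -0.95 for Chd4, -2.29 to -2.01 for Trrap, -0.32 to -0.24 for Btaf1 and -0.12 to -0.05 for Brd9. With replicate number as a replicate block in set 1, 482 genes were called against 499 without it, and changes were -1.71 for Trrap, -0.91 for Srcap, -0.84 for Chd4, -0.36 for Btaf1 and 0.03 for Brd9. Deviations of same-numbered libraries correlated at -2.885e-05, 0.001205 and 0.0915, and control 1 correlated best with CKO 2 (0.0982), so the numbers were not taken to pair them. Chd4 and Trrap shrank after the length correction by more than their SE, and the cause was not tested.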
